A study of Homo sapiens with 4 samples.

Results

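The genes described here are 10 members of the machinery that takes a cell through G1: the D-type cyclins CCND1, CCND2 and CCND3, the E-type cyclins CCNE1 and CCNE2, the kinases CDK2, CDK4 and CDK6, the inhibitor CDKN1B (p27) and the retinoblastoma gene RB1. They were chosen by name, and all 10 were found among the 31907 gene names of the count data and listed in every library. HGC-27 is a human gastric cancer (GC) cell line. RNA was sequenced from 2 libraries of HGC-27 cells given PBS and from 2 libraries of HGC-27 cells given 200 ng/ml rIL-17B, the recombinant cytokine, each collected at 48 h. The labels name no genetic change and give the same line for all 4 libraries. Whether each library matches its label was not tested. Nothing in the labels says whether the replicates were separate cultures, so the p-values below measure only the spread between these samples.

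In G1 the D-type cyclins bind CDK4 or CDK6, and these complexes phosphorylate the RB1 protein, which in its unphosphorylated form holds back the E2F transcription factors. E-type cyclins then activate CDK2, which completes RB1 phosphorylation and drives entry into S phase, while p27 binds cyclin-CDK complexes and restrains CDK2. Gastric cancers often carry extra copies of genes of this group, CCNE1 among them. The libraries measure mRNA, so they hold no reading of RB1 phosphorylation, kinase activity or cell cycle phase.

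The D-type cyclins are shown first at the sequence level, because the results below turn on which of the 3 was expressed and reads can be told apart only where the genes differ. The lines give the first 60 coding bases of each from the GENCODE 29 transcripts on GRCh38, 5′ to 3′, with the codons of the RB-binding motif LxCxE in capitals.
CCND1: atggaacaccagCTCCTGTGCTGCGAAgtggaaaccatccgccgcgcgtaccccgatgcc
CCND2: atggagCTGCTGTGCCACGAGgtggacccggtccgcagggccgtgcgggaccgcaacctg
CCND3: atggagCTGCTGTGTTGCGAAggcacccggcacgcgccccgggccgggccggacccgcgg
The motif covered residues 5 to 9 of CCND1 and residues 3 to 7 of CCND2 and CCND3. Over the whole coding sequences, identity was 66.41% between CCND1 and CCND2, 61.53% between CCND1 and CCND3 and 66.63% between CCND2 and CCND3. The longest run of identical bases was 23 for CCND1 and CCND2, 20 for CCND1 and CCND3 and 15 for CCND2 and CCND3, in the coding sequences and in the whole transcripts alike.

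The PBS libraries held 15904594 and 12888029 counts, and those with rIL-17B 14615341 and 17555879. Levels are given as CPM, a gene's counts scaled to a common library total, and 3 counts, the smallest level taken as shown, were 0.171 to 0.233 CPM. One library stood apart. In rIL-17B replicate 1, 3040 of the 16361 genes tested were at least 2-fold below the PBS mean (18.6%) and 427 at least 2-fold above it (2.61%). In rIL-17B replicate 2 the same counts were 94 (0.575%) and 10 (0.0611%). These counts and all log2 ratios to the PBS mean were taken after adding 0.5 CPM, whereas folds and percentages of the PBS mean have nothing added. The 9 mesenchymal markers summed to 50700 and 50100 CPM with PBS and to 956 and 42400 CPM with rIL-17B, all 9 above 3 counts in every library, and FN1 alone gave 33100, 32500, 149 and 27500 CPM. The 8 epithelial markers summed to 988 and 981 CPM with PBS and to 2210 and 1240 CPM with rIL-17B. They were led by KRT8 at 601, 611, 1460 and 787 CPM, and 5 or 6 of the 8 were above 3 counts in each library. The 8 proliferation markers, all above 3 counts in every library, summed to 1300 and 1240 CPM and then to 2670 and 1540 CPM, TOP2A being the highest. Of 9 gastric epithelial markers 7 were listed, and they summed to 24 to 28.6 CPM with PBS and 28.1 to 36.8 CPM with rIL-17B, most of it MUC1, while TFF1 and PGC were at 0 throughout. The labels' library protocol speaks of monocytes. The 11 monocyte and leukocyte markers summed to 8.89 to 14.5 CPM in any library. Of the 11, 8 and 7 were above 3 counts with PBS, and 3 and 7 with rIL-17B. CSF1R was the highest, at 3.9 and 5.59 CPM with PBS and at 8.14 and 6.15 CPM with rIL-17B. In rIL-17B replicate 1, PTPRC, LYZ, ITGAM, FCGR3A, S100A9 and CD3E were at 0, and CD68 was at 0 in both PBS libraries. Endothelial markers (4 genes, led by KDR) summed to 22.2 and 30.5 CPM with PBS and to 1.03 and 18.7 CPM with rIL-17B, and neural markers (8 genes, 5 listed, led by MAP2) to 143 and 182 CPM and to 57.0 and 116 CPM. The part of these differences in the results below was not tested. Since rIL-17B replicate 1 weighs on every group mean, each gene is given library by library, and the tests are repeated without that library.

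None of the 10 genes passed the test between rIL-17B and PBS. The quasi-likelihood test of edgeR, with p-values adjusted by Benjamini and Hochberg's method, gave 0 calls at an adjusted p of 0.05 among 16361 genes (0.0%), and DESeq2 also gave 0. At an unadjusted p under 0.05, edgeR took in 226 genes (1.38%) and DESeq2 took in 547 of 31907 (1.71%). CDK2 was the one gene of the 10 among the 226. Both rIL-17B values were above both PBS values for CCND3, CCNE2, CDK2 and CDK4, and below both for CCND1 and CCND2, whereas the groups overlapped for CCNE1, CDK6, CDKN1B and RB1. Among all genes tested, 31.5% were higher and 27.5% lower in this sense, so 4 and 2 genes of 10 are close to what the whole table gave. A permutation test of 2 libraries against 2 cannot go below an exact two-sided p of 0.33, so none is given for single genes.

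**Figure D1:**
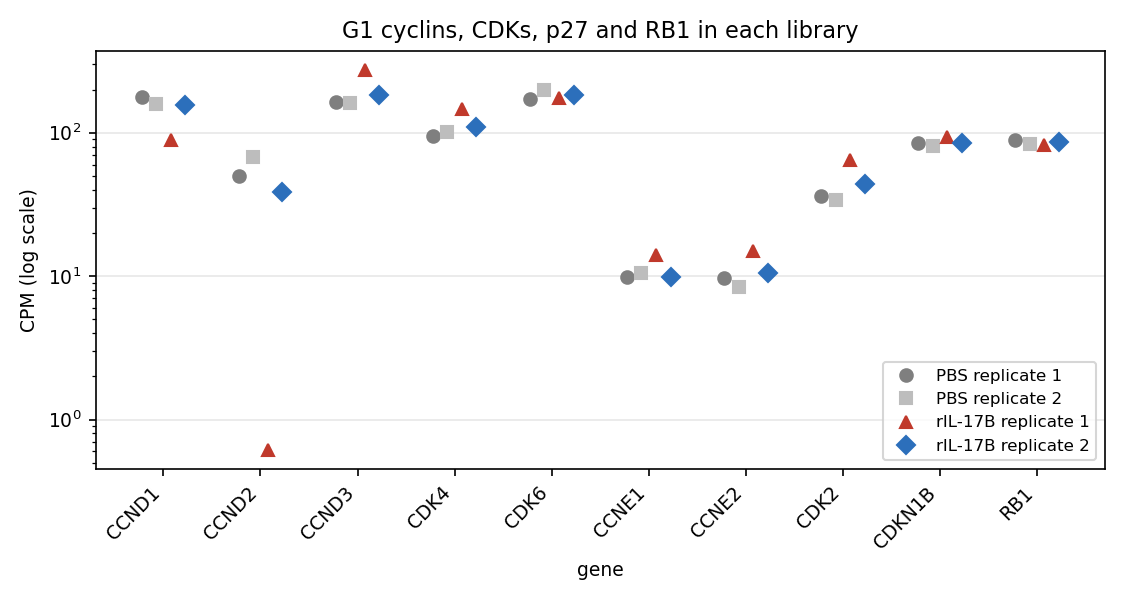
CPM of the 10 genes (log axis) in each of the 4 libraries, 1 point per library. CCND2 in rIL-17B replicate 1 lies at 0.616 CPM, far below its other 3 points, while the 4 points of RB1, CDK6 and CDKN1B lie close together.

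CCND2 was the gene that differed most between libraries. CCND2 lies at chr12:4273772-4305350 on the plus strand of GRCh38 and encodes the D-type cyclin that growth factor signals induce in many tissues. It was counted 794 and 869 times with PBS, 9 times in rIL-17B replicate 1 and 679 times in rIL-17B replicate 2. These counts were 49.9, 67.4, 0.616 and 38.7 CPM. CCND2 was thus nearly absent from one rIL-17B library and present in the other below both PBS values. In rIL-17B replicate 1 the level was 95.3-fold below the PBS mean, with a 95% counting interval from 50.2-fold to 208-fold. That interval covers the 9 counts alone, with the PBS mean taken as fixed, so the spread between the PBS libraries is not in it. In rIL-17B replicate 2 the level was 1.52-fold below the PBS mean. With 0.5 CPM added, which shrinks the difference of a gene this low, the log2 ratios were -5.73 and -0.60. Counting intervals here cover counting error only, since PCR copies are not independent molecules. In bulk RNA, fewer cells that express CCND2 and less CCND2 RNA per cell cannot be told apart.

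With the rIL-17B libraries so far apart, the mean of 19.6 ± 26.9 CPM (SD, n = 2) against 58.7 ± 12.4 CPM with PBS gave CCND2 a log2 fold change of -1.58 with an SE of 1.75 and an edgeR adjusted p of 0.696. Without rIL-17B replicate 1 the log2 fold change was -0.60 with an SE of 0.11 and an edgeR adjusted p of 1.76e-05, in a fit that called 504 of 17103 genes (2.95%). Without rIL-17B replicate 2 it was -6.68, in a fit that called 9489 of 17223 genes (55.1%). Both fits assume that the lone rIL-17B library varies as the PBS libraries do. The adjusted p of CCND2 ranged from 2.32e-167 to 0.993 over the settings in which it was fitted, the highest from DESeq2. CCND2 was lower with rIL-17B under each of those settings. CCND2 had company in rIL-17B replicate 1. With 0.5 CPM added, 152 tested genes, CCND2 counted among them, had a ratio to the PBS mean at or below that of CCND2. Genes with a low PBS mean cannot reach that ratio even at 0 counts. With nothing added, 88 of the 3817 genes with a PBS mean at least as high had a ratio at or below that of CCND2, again with CCND2 counted.

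The 5 tested genes with the profile closest to CCND2, by Euclidean distance between mean-centred log2(CPM + 0.5) values over the 4 libraries, were ELN, SPRY4, PROX1, APBA2 and ADGRL2, at distances of 0.119 to 0.162. ELN, which encodes elastin, had 666, 759, 8 and 583 counts in the order PBS replicates 1 and 2, then rIL-17B replicates 1 and 2. SPRY4, an inhibitor of receptor tyrosine kinase signalling, had 770, 767, 7 and 637 counts. PROX1, a homeobox transcription factor, had 404, 427, 0 and 320 counts. All 5 were at or near 0 in rIL-17B replicate 1 and below both PBS values in rIL-17B replicate 2, and with 4 libraries the likeness rests mostly on that one value. Of the genes that overlap CCND2, CCND2-AS1 on the opposite strand had 0 to 3 counts in any library and shares 1.761% of the exon bases of CCND2. AC008012.1, a protein-coding gene on the same strand, shares 13.819% of them and is not listed in the counts, so how its reads were counted is not known.

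CCND1 encodes cyclin D1, which links growth factor signalling to CDK4 and CDK6 and is often overexpressed in cancer. The gene lies at chr11:69641087-69654474 on the plus strand and was at 178 and 157 CPM with PBS, 89.2 CPM in rIL-17B replicate 1 and 156 CPM in rIL-17B replicate 2. The first rIL-17B library held 53.2% of the PBS mean and the other held 93.2%, just under the lower PBS library. Its log2 fold change was -0.50 with an SE of 0.37 and an edgeR adjusted p of 0.661. Without rIL-17B replicate 1 the log2 fold change of CCND1 was -0.11. An antisense neighbour, ORAOV1, shares 10.29% of the CCND1 exon bases and had 275 to 372 counts, against 1303 to 2831 for CCND1.

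CCND3, the third D-type cyclin and the one most tied to blood cell proliferation, went the other way. It lies at chr6:41934933-42050357 on the minus strand and was at 164 and 160 CPM with PBS, 275 CPM in rIL-17B replicate 1 and 182 CPM in rIL-17B replicate 2. Both rIL-17B libraries were above the PBS mean of 162.3 ± 2.87 CPM (SD, n = 2), by 1.69-fold and 1.12-fold. The log2 fold change was 0.41 with an SE of 0.20 and an edgeR adjusted p of 0.661. Without rIL-17B replicate 1 it was 0.16.

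The makeup of the D-type cyclins does not depend on a library's total, so it was taken within each library. Reads were counted per kilobase of merged exon, and the shares depend on those lengths. CCND1 made up 51.1% and 46.8% of the D-type cyclins' reads per kilobase with PBS. It made up 28.0% in rIL-17B replicate 1 and again 46.8% in rIL-17B replicate 2. CCND2 made up 9.67% and 13.5% with PBS, and 0.13% and 7.82% with rIL-17B. CCND3 made up 39.3% and 39.7% with PBS, and 71.9% and 45.4% with rIL-17B. The share of CCND3 was thus above both PBS values in both rIL-17B libraries, that of CCND2 was below both in both, and that of CCND1 was below the PBS values in rIL-17B replicate 1 and level with the lower of them in the other. On the plain reads, CCND3 gave 75.4% of 5331 D-type cyclin reads in rIL-17B replicate 1, with a 95% Wilson interval of 74.2% to 76.5%, and 48.3% of 6619 in rIL-17B replicate 2 (47.1% to 49.5%). With PBS it gave 41.9% of 6239 (40.7% to 43.1%) and 41.6% of 4964 (40.3% to 43.0%).

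The summed level of the 3 D-type cyclins differed little between libraries on the scale of RPKM, here CPM per kilobase of the gene's merged exons. The sum was 72.2 and 69.6 with PBS and 65.9 and 69.1 with rIL-17B. Both rIL-17B sums were below both PBS sums, the second of them just below. These sums, and which cyclin led with PBS, depend on the lengths used. Merged exons had 4830 bases for CCND1, 7157 for CCND2 and 5802 for CCND3. The transcripts whose coding bases are shown above had 4307, 6480 and 2085 bases. Sums with the transcript lengths were not taken, so no direction is read from the sums. In rIL-17B replicate 1 CCND3 was at 47.4 RPKM against 18.5 for CCND1 and 0.086 for CCND2, while with PBS CCND1 led at 36.9 and 32.6 RPKM.

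**Figure D2:**
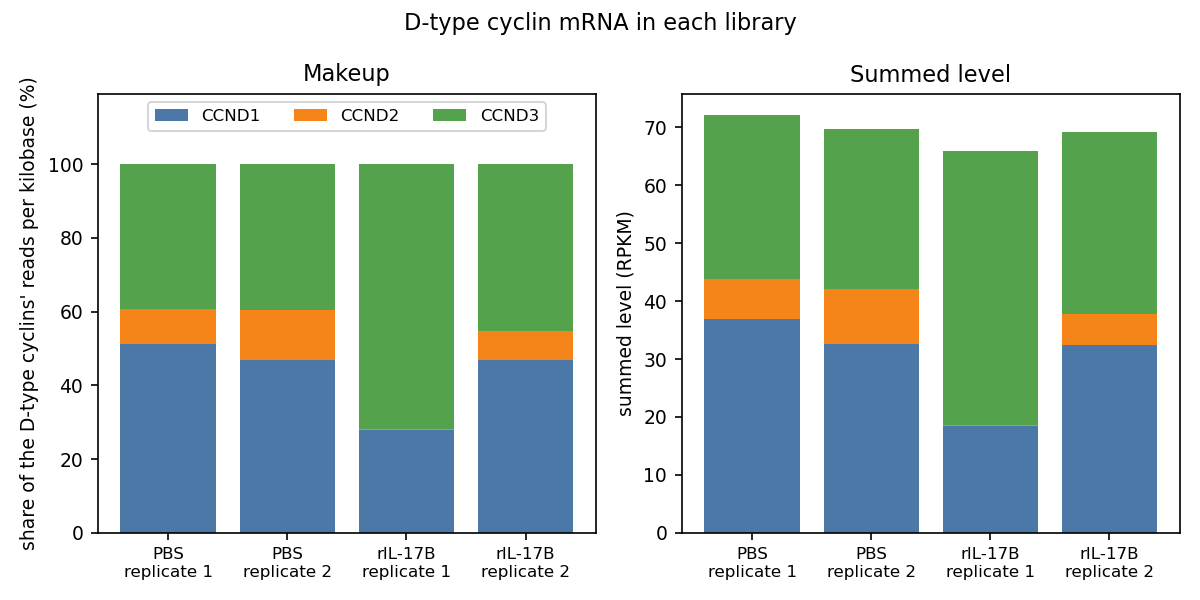
Share of each D-type cyclin in their summed reads per kilobase (left, percent) and their summed level (right, RPKM) in each library. CCND3 takes 71.9% in rIL-17B replicate 1 against 39.3% to 45.4% elsewhere, and the summed level stays between 65.9 and 72.2 RPKM.

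The kinase partners of the D-type cyclins differed from each other. CDK4, at chr12:57747727-57756013 on the minus strand, was at 95.6 and 101.2 CPM with PBS, 146 CPM in rIL-17B replicate 1 and 109 CPM in rIL-17B replicate 2. These were 1.48-fold and 1.11-fold the PBS mean, and the groups did not overlap. CDK4 had a log2 fold change of 0.29 with an SE of 0.14 and an edgeR adjusted p of 0.661. Without rIL-17B replicate 1 the log2 fold change was 0.15. TSPAN31 on the opposite strand shares 43.213% of the CDK4 exon bases, and since strand use is not known part of either count may belong to the other. TSPAN31 had 230 to 349 counts and CDK4 had 1304 to 2131, and the part of the overlap in the CDK4 values was not tested.

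CDK6, at chr7:92604921-92836594 on the minus strand, was at 173 and 200 CPM with PBS and at 176 and 182 CPM with rIL-17B. Both rIL-17B libraries lay between the PBS libraries. The log2 fold change was -0.12 with an SE of 0.14 and an edgeR adjusted p of 0.694. Per kilobase, the level of CDK4 was 2.14 and 1.96 times that of CDK6 with PBS, and 3.21 and 2.31 times with rIL-17B. Both rIL-17B ratios were above both PBS ratios, and the summed level of CDK4 and CDK6 was 44.3 and 48.2 RPKM with PBS and 60.4 and 49.3 RPKM with rIL-17B.

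Per kilobase, the E-type cyclins were the lowest of the 10 genes with PBS. CCNE1, at chr19:29811898-29824308 on the plus strand, was at 9.87 and 10.6 CPM with PBS, 14.1 CPM in rIL-17B replicate 1 and 9.85 CPM in rIL-17B replicate 2. One rIL-17B library was above both PBS libraries and the other just below them. Its log2 fold change of 0.15 had an SE of 0.23 and an edgeR adjusted p of 0.751, and without rIL-17B replicate 1 it was -0.05. CCNE2, at chr8:94879770-94896678 on the minus strand, was at 9.68 and 8.38 CPM with PBS, 14.9 CPM in rIL-17B replicate 1 and 10.5 CPM in rIL-17B replicate 2. Both were above the PBS libraries, by 1.65-fold and 1.17-fold over their mean. CCNE2 had a log2 fold change of 0.41 with an SE of 0.24 and an edgeR adjusted p of 0.661. INTS8 on the opposite strand shares 37.048% of the CCNE2 exon bases and had 381 to 546 counts, more than the 108 to 218 of CCNE2, so the CCNE2 level is uncertain. The part of INTS8 reads in the CCNE2 values was not tested. The level of CCNE1 per kilobase was 1.76 and 2.17 times that of CCNE2 with PBS, and 1.63 and 1.61 times with rIL-17B.

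CDK2, the kinase that the E-type cyclins activate, had the smallest p of the 10 genes. It lies at chr12:55966769-55972784 on the plus strand and was at 36.2 and 33.9 CPM with PBS, 65.1 CPM in rIL-17B replicate 1 and 44.1 CPM in rIL-17B replicate 2. Both rIL-17B libraries were above the PBS mean of 35.1 ± 1.63 CPM (SD, n = 2), by 1.86-fold and 1.26-fold. The log2 fold change was 0.56 with an SE of 0.19, an unadjusted edgeR p of 0.0476 and an adjusted p of 0.661, and 205 tested genes had a p at or below that of CDK2. Without rIL-17B replicate 1 it was 0.33 with an edgeR adjusted p of 0.103, and over all settings the adjusted p ran from 4.85e-11, without rIL-17B replicate 2, to 0.993 with DESeq2. CDK2 was higher with rIL-17B in each setting. PMEL, on the opposite strand, shares 2.286% of the CDK2 exon bases and had 14 to 21 counts in any library. AC025162.1, an antisense gene, shares 14.51% of them and is not listed in the counts, so how its reads were counted is not known.

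CDKN1B encodes p27, the inhibitor that binds cyclin E-CDK2. The gene, at chr12:12715058-12722371 on the plus strand, was at 85.3 and 81.4 CPM with PBS and at 92.9 and 85.1 CPM with rIL-17B. The groups overlapped and the log2 fold change was 0.02 with an SE of 0.09 and an edgeR adjusted p of 0.899. Its sign turned under some settings.

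RB1, the substrate of these kinases, varied least of the 10, with a range of 0.11 on the log2 scale of CPM over the 4 libraries against 5.93 for CCND2. It spans chr13:48303726-48599436 on the plus strand and was at 89.3 and 83.2 CPM with PBS and at 82.8 and 85.6 CPM with rIL-17B. The log2 fold change was -0.10 with an SE of 0.12 and an edgeR adjusted p of 0.704. LPAR6, which lies within RB1 on the opposite strand and shares no exon base with it, had 188 and 127 counts with PBS, 3 in rIL-17B replicate 1 and then 113 in rIL-17B replicate 2. RB1 thus stayed close to its PBS values in a library where the gene inside it was nearly absent.

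**Figure D3:**
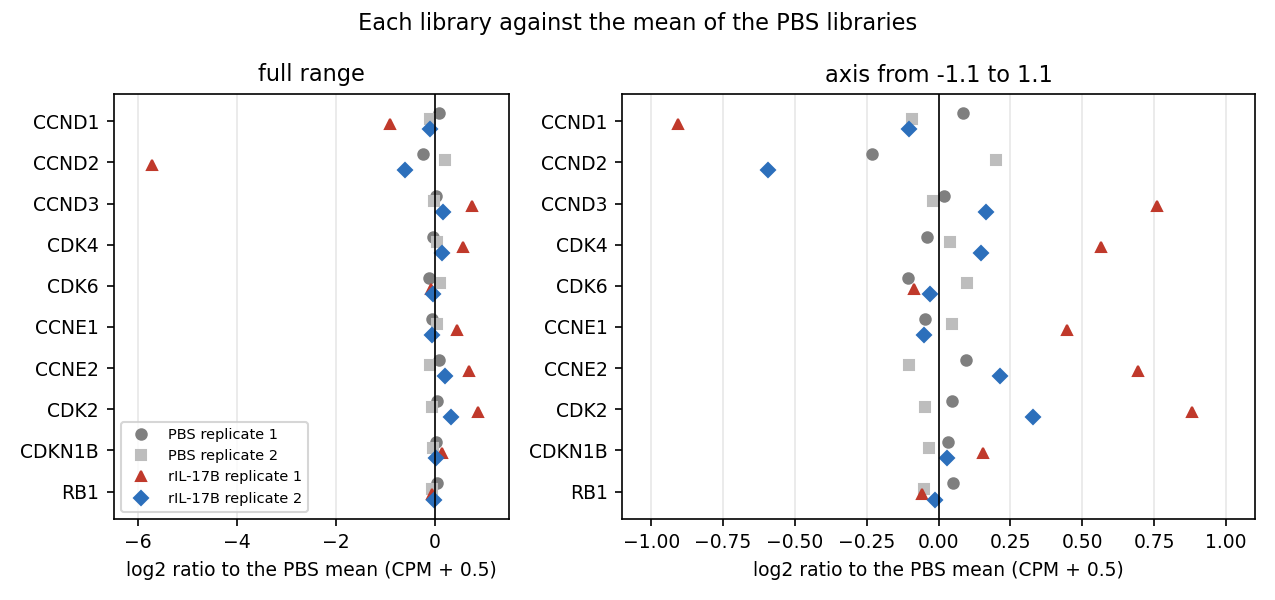
Log2 ratio of each library's CPM + 0.5 to the mean of the PBS libraries, over the full range (left) and from -1.1 to 1.1 (right), 1 point per library. CCND2 in rIL-17B replicate 1, at -5.73, is shown only on the left, and rIL-17B replicate 2 lies between the PBS mean and rIL-17B replicate 1 for each gene but CCNE1.

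Read alone, rIL-17B replicate 1 had 1 of the 10 genes at least 2-fold below the PBS mean, CCND2, and 0 at least 2-fold above it, beside 18.6% and 2.61% of all genes tested. With TMM scaling, CCND1 also passed the 2-fold limit, but the share of all genes under that scaling was not taken. In rIL-17B replicate 2, 0 of the 10 passed it in either direction, beside 0.575% lower and 0.0611% higher. The edgeR fit without rIL-17B replicate 1 called CCND2 alone of the 10, beside 2.95% of all genes, and the fit without rIL-17B replicate 2 called 7 of the 10, with CCND1, CCND2 and CDK6 lower and CCND3, CCNE2, CDK2 and CDK4 higher, beside the 55.1% of all genes that it called. Without rIL-17B replicate 1, 4 of the 10 were above both PBS libraries and 3 below both, beside 37.0% and 36.1% of all genes tested.

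Levels were ranked per kilobase, by RPKM. With PBS, CCND1 was highest at 32.6 to 36.9, followed by CDK4 at 30.2 to 31.9 and CDKN1B at 28.96 to 30.3, whose ranges overlapped. CCND3 came next at 27.6 to 28.3, then CDK6 at 14.1 to 16.3 and RB1 at 12.9 to 13.8. CDK2 at 8.71 to 9.30 and CCND2 at 6.98 to 9.42 overlapped, and CCNE1 at 3.87 to 4.14 and CCNE2 at 1.91 to 2.2 were lowest. With rIL-17B, the ranges of CDK4, CCND3, CDKN1B and CCND1 overlapped from one to the next, as did those of CDK6, CDK2 and RB1, and CCND2 reached from 0.086 to 5.40. These ranks rest on the merged exons of all annotated transcripts, from 2550 bases for CCNE1 to 12260 for CDK6.

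The surrounding pathway was read from 8 lists, written by hand with earlier results of these data known. Their counts are therefore not independent of the data. The lists hold 115 genes, 112 of which were tested. The edgeR fit called 0 of them, and 4 had an unadjusted p under 0.05. Both rIL-17B values were above both PBS values for 70 of the 112 and below both for 13, where all genes tested gave the 31.5% and 27.5% above. The median log2 fold change over the 112 was 0.30, against -0.03 over all genes tested and 0.09 over the 10 G1 genes. The lists differed in where their genes lay. In what follows the first pair of values of a gene is from PBS replicates 1 and 2 and the second from rIL-17B replicates 1 and 2.

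Among the 7 CDK inhibitors, 3 were above both PBS values and 2 below both. CDKN2A, whose product p16 blocks CDK4 and CDK6, was at 182 and 192 CPM with PBS and at 317 and 215 CPM with rIL-17B. CDKN2B, the p15 inhibitor of the same kinases, was at 67.7 and 60.5 CPM with PBS and at 79.4 and 69.3 CPM with rIL-17B. CDKN2C, the p18 inhibitor, was at 75.3 and 75.3 CPM and then at 109 and 80.5 CPM. Counts are per gene, so the transcripts of CDKN2A are not told apart. The 3 genes of these CDK4 and CDK6 inhibitors lay above the PBS values in both rIL-17B libraries. CDKN2D (p19), the remaining inhibitor of that family, lay below them, at 15.6 and 16.99 CPM and then at 3.9 and 14.9 CPM. The relatives of CDKN1B differed as well. CDKN1A (p21) was at 347 and 345 CPM with PBS and at 68.3 and 302 CPM with rIL-17B, below both PBS values in both. CDKN1C (p57) was at 13.8 and 12.6 CPM and then at 12.7 and 13.2 CPM, with overlapping groups. CDKN2D, CDKN1A and CDKN1C were named after their values were seen.

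Among the 9 RB-related and DREAM complex genes, 5 were above both PBS values and 0 below, with a median log2 fold change of 0.26. LIN9, a subunit of the MuvB core, was at 19.4 and 20.8 CPM with PBS and at 33.4 and 24.3 CPM with rIL-17B. LIN37, another subunit, was at 0.503 and 0.543 CPM with PBS and at 0.890 and 1.31 CPM in the rIL-17B libraries. These values rest on few counts, 8 and 7 with PBS and 13 and 23 with rIL-17B. MYBL2, which joins MuvB in S phase, was at 97.7 and 101.3 CPM and then at 214 and 114 CPM. Among the 10 E2F and DP factors, 5 were above and 1 below, with a median of 0.16. E2F1 was at 44.5 and 43.1 CPM with PBS and at 78 and 50.9 CPM with rIL-17B. E2F2 was at 28.6 and 26.1 CPM and then at 49.3 and 28.8 CPM. E2F3 was at 57.5 and 62.4 CPM and then at 87.5 and 70.2 CPM. These are the activator E2Fs that RB1 binds, and all 3 lay above their PBS values in both rIL-17B libraries, E2F2 in rIL-17B replicate 2 by the least.

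Among the 9 genes of CDK activation, 7 were above both PBS values and 0 below, with a median log2 fold change of 0.26. CDC25A, the phosphatase that removes inhibitory phosphates from CDK2, was at 38.7 and 37.5 CPM with PBS and at 73.8 and 46.9 CPM with rIL-17B. CDC25B was at 144 and 159 CPM and then at 253 and 168 CPM. CDC25C, a phosphatase that acts on CDK1 at mitosis, was at 10.6 and 9.54 CPM and then at 23.4 and 13.8 CPM. Of the 15 genes of cyclin and p27 degradation, 8 were above and 2 below, with a median of 0.24. CKS1B, the cofactor with which SKP2 recognises p27, was at 43.8 and 41.7 CPM with PBS and at 77.9 and 52.3 CPM with rIL-17B, while CDKN1B itself overlapped between the groups. CKS2, a relative of CKS1B, was at 62.7 and 53.1 CPM and then at 122 and 67.6 CPM. CUL1, the scaffold of the SCF ligase, was at 111 and 114 CPM and then at 155 and 124 CPM.

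The E2F target genes and the cyclins of S, G2 and M phase with CDK1 had the highest medians of the 8 lists. Of the 32 E2F target genes of DNA replication, 30 were above both PBS values and 0 below, with a median log2 fold change of 0.59, and 14 of the 32 were at least 2-fold above the PBS mean in rIL-17B replicate 1, against 0 in the other rIL-17B library. Their median log2 ratio to the PBS mean was 0.97 and 0.25 in rIL-17B replicates 1 and 2, against 0.082 and -0.001 over all genes tested. GINS1, a subunit of the replicative helicase complex, was at 12.1 and 12.6 CPM with PBS and at 23.5 and 19.9 CPM with rIL-17B. Its log2 fold change was 0.74 with an SE of 0.15, and its edgeR p was 0.00967 unadjusted and 0.661 adjusted. TK1, thymidine kinase, was at 77.96 and 78.4 CPM and then at 176 and 105 CPM. RRM1, a subunit of ribonucleotide reductase, was at 163 and 159 CPM and then at 327 and 206 CPM.

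Of the 6 cyclins of S, G2 and M phase with CDK1, 5 were tested and all 5 were above both PBS values, with a median log2 fold change of 0.64. CCNA2, which partners CDK2 in S phase, was at 73.6 and 64.9 CPM with PBS and at 128 and 84.6 CPM with rIL-17B. CCNB1, the mitotic cyclin, was at 135 and 126 CPM and then at 266 and 169 CPM. CDK1, its partner, was at 89.4 and 87.0 CPM and then at 165 and 107 CPM. The proliferation markers given above lay on the same side, and their part in these values was not tested. The 27 other cyclins and CDKs were spread evenly, with 7 above, 8 below and a median of -0.04 over the 25 tested. CCNL1, a cyclin linked to splicing, was at 137 and 145 CPM with PBS and at 113 and 127 CPM with rIL-17B. CDK17 was at 49.1 and 46.1 CPM and then at 30.1 and 40.8 CPM. CDK12, which phosphorylates RNA polymerase II, was at 105 and 97.1 CPM and then at 156 and 115 CPM.

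The edgeR fit without rIL-17B replicate 1 called 6 of the list genes, beside 2.95% of all genes, and the fit without rIL-17B replicate 2 called 86, beside 55.1% of all genes. Neither fit without a PBS library called any.

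**Figure D4:**
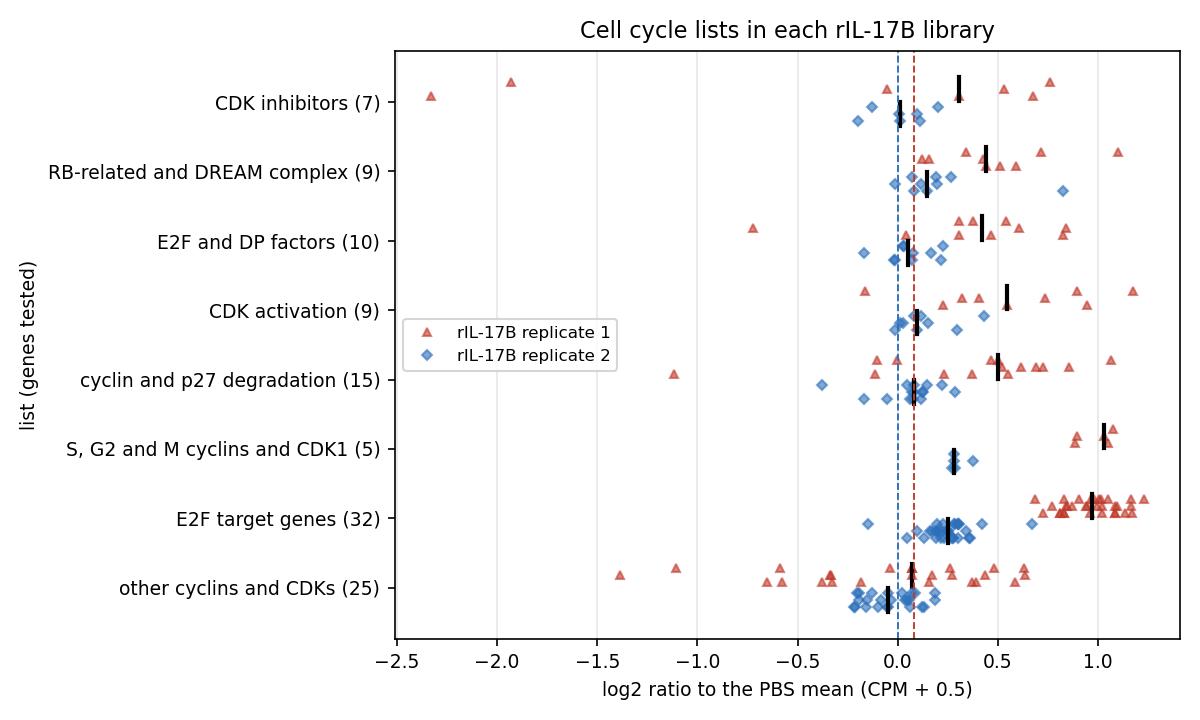
Log2 ratio of CPM + 0.5 to the PBS mean for each tested gene of the 8 lists in rIL-17B replicate 1 (triangles) and rIL-17B replicate 2 (diamonds), with black bars at the list medians and dashed lines at the medians of all genes tested (0.082 and -0.001). The E2F target genes and the S, G2 and M cyclins lie to the right, at medians of 0.97 and 1.03 in rIL-17B replicate 1 and 0.25 and 0.28 in rIL-17B replicate 2, while the other cyclins and CDKs spread around 0.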

How the data were processed

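Illumina libraries were made from HGC-27 RNA by Smart-seq2, in which an oligo-dT primer starts reverse transcription and the cDNA is amplified by PCR. The authors deposited whole-number counts of reads per gene name, without normalization. The submitters' processing notes name Bowtie2 2.2.3, HISAT2 2.1.0, TopHat2, HTSeq 0.6.0 and the build hg38, without their roles. Neither the annotation nor the strand setting is given in the sources used here.

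Names turned into numbers (22 to 25 per library) were left out. Repeated names with equal counts (83 to 98 per library) were kept once, and a name missing from a library was given 0. The totals were then 12888029 to 17555879 counts. Of the names, 97.84% were found once in GENCODE 29, the source of positions, exon lengths and sequences.

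Groups and replicate numbers come from the labels. Counts were tested in edgeR 4.0.16 (R 4.3.3) with TMM factors of 0.97 to 1.07, filterByExpr and the quasi-likelihood F test with 2 residual degrees of freedom over 16361 genes. Adjusted p-values (Benjamini-Hochberg) under 0.05 were called. The SE of a log2 fold change was taken from F, as the absolute change over the root of F. CPM were scaled by library totals alone, and RPKM divide them by merged exon length. Tables and plots were made in Python 3.11.15. The fit was also run on simulated counts that held a common spread and no library that stands apart. That run therefore does not show how the fit behaves on these data.

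Alternatives were DESeq2 1.42.0, upper-quartile normalization, library totals alone, no filter, at least 10 counts in every library, a replicate block, an adjusted p of 0.1, other added CPM and leaving out each library. Same-numbered libraries deviated together with r = 0.08 across 16361 genes, and nothing in the labels says that a number marks a shared culture or day.

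The genes, the 8 pathway lists and the 7 marker lists were chosen by hand with earlier results of these data known. Besides the 10 G1 genes, the text names the 3 tested genes of each pathway list with the smallest unadjusted p, the highest gene of each marker list and the 5 profiles closest to the G1 gene with the widest range. Marker genes at 0, overlapping genes, CDKN1A, CDKN1C and CDKN2D are named outside this rule.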

Additional observations from a re-analysis of the deposited data

How the results depend on the processing

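The number of genes called was 0 in the fit to all libraries, under every other setting, and without either PBS library, and leaving out 1 library gave 0 to 9489, with 504 without rIL-17B replicate 1. The same range was 0 to 7 for the 10 G1 genes, with 1 without rIL-17B replicate 1, and 0 to 86 for the pathway genes, with 6. Each such fit has 1 residual degree of freedom. Genes at an unadjusted p under 0.05 are given with their share of the genes fitted, since the settings fitted unlike numbers of genes. There were 226 in the edgeR fit (1.38%), 190 with upper-quartile normalization (1.16%) and 161 with library totals alone (0.984%). Where all libraries had at least 10 counts there were 462 (3.41%), with DESeq2 547 (1.71%) and without a filter 879 (2.75%). With the replicate block there were 173 (1.06%), 0 genes were called, and CCND2 had a log2 fold change of -3.30 in place of -1.58. The cause was not tested. CCND2 was not fitted with at least 10 counts in every library, since it had 9 in one.

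The log2 fold change of CDKN1B was -0.017 where all libraries had at least 10 counts and -0.02 to 0.066 with 1 library left out. That of CCNE1 was -0.053 to 0.33 with 1 library left out, the lowest without rIL-17B replicate 1. The other G1 genes kept their direction under every setting. With CPM scaled by TMM, 2 G1 genes in place of 1 were at least 2-fold lower in rIL-17B replicate 1, with no share over all genes taken under that scaling. G1 genes whose groups did not overlap numbered 4 to 6 higher and 3 lower with 1 library left out, a setting chosen after seeing the data. Without rIL-17B replicate 1 they were 4 and 3, beside 37.0% and 36.1% of all genes tested. For the other omissions the share over all genes was not taken, so those counts are not read as a result.

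Without division by length, the D-type cyclin shares were 43.1% (CCND1), 15.1% (CCND2) and 41.8% (CCND3) as PBS means, 24.4% (CCND1) and 75.4% (CCND3) in rIL-17B replicate 1, and 41.4% and 48.3% in rIL-17B replicate 2. CDK4 to CDK6 was then 0.53 with PBS and 0.83 and 0.598 with rIL-17B, and CCNE1 to CCNE2 was 1.14, 0.945 and 0.935. With 2 libraries a group and 1 that stands apart, the fit to all libraries could not tell differences of the size seen in rIL-17B replicate 2 from the spread.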
